A study of Homo sapiens with 4 samples.

Results

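The noncoding transcripts that were well measured in Hs746T gastric carcinoma cells were followed across 4 Agilent arrays. Hs746T is an established line with an amplified, exon-skipping MET receptor gene. Cells received DMSO, the solvent control, or PHA665752, a small-molecule inhibitor of the MET kinase, or were transfected with sc siRNA, the scrambled control, or MET siRNA and harvested 48 h later. How much PHA665752 the hybridised cells received, and for how long, is not given in the sources used here. Fewer cells and less RNA per cell cannot be told apart in such bulk samples. Each condition had 1 array, so no value has a replicate error, no test was made, and a comparison describes these arrays; all stood on a single slide. A single line, a single inhibitor and, as far as the labels go, a single MET siRNA limit what the groups stand for.

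The members were selected on their signal, as the probes annotated to RefSeq noncoding (NR) accessions, marked well above background on all 4 arrays and with a processed signal of at least 300 on each. Of 34127 probes on the array, 2136 had NR accessions, for 1791 genes or accessions. Of these, 827 were not well above background on any array, 346 were on 1 to 3 arrays and 963 on all 4. The signal minimum left 387, and 1 was left out because its gene also has a coding (NM) accession, which gave 386 members for 342 of the array's 27708 genes or accessions. The minimum of 300 was thus part of the selection, and LPP-AS2 (lowest signal 301) and FGF7P6 (304) lay just inside it, whereas NR_038388 and RNF138P1 lay just outside, with lowest signals of 299 and 298. A current RefSeq symbol was found for 338 members, while 48 kept only their accession. Of the members, 383 were spotted once on each array and 3 were spotted 10 times.

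Because a member had to pass on every array, the selection trimmed transcripts that were low on a single one. On the PHA665752 array alone 19 NR probes failed, and 9 of the 17 with a ratio were more than 2-fold below DMSO, the lowest being SPRR2C at a log2 ratio of -5.25. On the DMSO array alone 12 failed, of which 3 of the 9 with a ratio were more than 2-fold higher with PHA665752. The remaining probes had no ratio because their spot was marked as an outlier, among them SNHG5 and MIR22HG on the PHA665752 array. The counts of lower members below are therefore counts within the selected set and do not describe all noncoding RNAs of these cells.

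Noncoding transcripts act in several ways. Long noncoding RNAs are transcribed and often spliced like messenger RNAs but act as RNA, for example as scaffolds in the nucleus or as by-products of transcription near a neighbouring promoter. Small nucleolar RNAs (snoRNAs), which guide chemical modification of ribosomal RNA, and many microRNAs are cut out of longer host transcripts, so a host gene signal reports on the host and not on the mature small RNA. Transcribed pseudogenes are relatives of coding genes that no longer encode the protein, and structural RNAs such as 7SL, 7SK and RNase P form the core of RNA-protein machines. By symbol and RefSeq biotype the members comprised 17 probes of snoRNA host genes, 5 of microRNA host genes, 52 antisense, intronic or overlapping transcripts, 86 other long noncoding RNAs, 155 pseudogene transcripts, 22 structural RNAs, 48 accessions without a symbol and 1 gene now listed as coding.

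The mature microRNAs within the microRNA host genes were taken from RefSeq on GRCh38.p14 and are shown because their hosts are described below; the array measured none of them. Capitals mark the seed, bases 2 to 8, which pairs with target messenger RNAs. No seed was shared between the microRNAs below.
hsa-miR-100-5p (MIR100HG, chr11:122152275-122152296, minus strand): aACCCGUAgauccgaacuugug
hsa-let-7a-5p (MIR100HG, chr11:122146568-122146589, minus strand): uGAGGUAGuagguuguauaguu
hsa-miR-125b-5p (MIR100HG, chr11:122099809-122099830, minus strand): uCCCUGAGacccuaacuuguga
hsa-miR-31-5p (MIR31HG, chr9:21512158-21512178, minus strand): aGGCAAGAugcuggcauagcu
hsa-miR-23a-3p (MIR23AHG, chr19:13836595-13836615, minus strand): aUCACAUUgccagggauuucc
hsa-miR-27a-3p (MIR23AHG, chr19:13836447-13836467, minus strand): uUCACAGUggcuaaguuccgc
hsa-miR-24-3p (MIR23AHG, chr19:13836289-13836310, minus strand): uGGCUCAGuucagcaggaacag

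Many snoRNA host genes begin with a cytosine and a run of pyrimidines, the 5′ terminal oligopyrimidine tract that they share with ribosomal protein genes. The first 30 bases from the annotated RefSeq start are given for the 3 hosts with the highest and the 3 with the lowest inhibitor ratio, and for ZFAS1 and SNHG12, which hold the tract, with the leading pyrimidine run in capitals. A cytosine start with at least 5 pyrimidines in a row was found in 3 of the 14 snoRNA hosts with a sequence (SNHG12, SNHG18 and ZFAS1) and in 4.04% of the 27305 start windows of the table. Annotated starts can differ from those the cell uses, so an absent tract says only that these letters are not at the annotated start.
EPB41L4A-AS1 (chr5:112160526-112160555, plus strand): Tgtcgggtcccaaaatacgtggtctaaagt
SNHG11 (chr20:38446654-38446683, plus strand): gcagccgcgcccccagccgtatttccgcgg
SNHG18 (chr5:9546200-9546229, plus strand): CTCCTCCTCCTCCTCCTCCCCgccggggtg
ZFAS1 (chr20:49278642-49278671, plus strand): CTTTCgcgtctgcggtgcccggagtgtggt
SNHG12 (chr1:28581844-28581873, minus strand): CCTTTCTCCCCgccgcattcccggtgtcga
SNHG17 (chr20:38435299-38435328, minus strand): agtccttcgccgtccctcgccgtccttcgc
SNHG10 (chr14:95534843-95534872, minus strand): agcctcatcctactgccttactattggtcg
SNHG1 (chr11:62855856-62855885, minus strand): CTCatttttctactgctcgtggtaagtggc

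Promoter windows of 300 bases (250 before to 50 after the annotated start) were matched for 113 of the 302 member symbols and searched on both strands for TGANTCA, the AP-1 site, CACGTG, the E-box, and TGACGTCA, the cyclic AMP response element. TGANTCA stood in 13 of the 113 member windows and in 7.76% of all windows, CACGTG in 8 against 7.43%, and TGACGTCA in 3 against 1.98%. Of the 3 members more than 2-fold below DMSO with a window, MANCR and SVIL-AS1 held TGANTCA. In MANCR it stood at positions -225 (as TGAATCA, outside the AP-1 site proper) and -126 (as TGAGTCA) from the start, and in SVIL-AS1 at position -150. Of the 18 higher members with a window, 2 held it. The windows of these transcripts, of SERTAD4-AS1, the member highest with MET siRNA, and of MALAT1, the best known of the members higher with PHA665752, are shown with TGANTCA in capitals. A match describes letters and not a bound site.
MANCR (chr10:4678021-4678320, minus strand): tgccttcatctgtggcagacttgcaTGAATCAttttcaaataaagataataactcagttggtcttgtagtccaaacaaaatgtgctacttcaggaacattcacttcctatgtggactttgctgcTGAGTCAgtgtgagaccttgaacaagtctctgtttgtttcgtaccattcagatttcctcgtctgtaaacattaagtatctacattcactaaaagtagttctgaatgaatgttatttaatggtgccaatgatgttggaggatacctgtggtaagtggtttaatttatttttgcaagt
SVIL-AS1 (chr10:29409284-29409583, plus strand): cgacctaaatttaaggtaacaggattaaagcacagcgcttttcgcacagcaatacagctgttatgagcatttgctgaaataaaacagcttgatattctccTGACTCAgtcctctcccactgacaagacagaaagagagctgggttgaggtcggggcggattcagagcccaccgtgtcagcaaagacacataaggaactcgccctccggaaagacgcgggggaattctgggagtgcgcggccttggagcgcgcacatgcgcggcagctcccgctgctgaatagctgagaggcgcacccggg
SERTAD4-AS1 (chr1:210233836-210234135, minus strand): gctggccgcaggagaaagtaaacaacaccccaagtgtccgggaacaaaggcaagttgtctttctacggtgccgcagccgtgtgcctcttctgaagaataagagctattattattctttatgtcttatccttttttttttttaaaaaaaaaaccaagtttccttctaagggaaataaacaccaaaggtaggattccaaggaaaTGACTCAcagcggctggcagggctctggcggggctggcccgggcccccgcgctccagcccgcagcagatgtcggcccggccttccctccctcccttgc
MALAT1 (chr11:65497488-65497787, plus strand): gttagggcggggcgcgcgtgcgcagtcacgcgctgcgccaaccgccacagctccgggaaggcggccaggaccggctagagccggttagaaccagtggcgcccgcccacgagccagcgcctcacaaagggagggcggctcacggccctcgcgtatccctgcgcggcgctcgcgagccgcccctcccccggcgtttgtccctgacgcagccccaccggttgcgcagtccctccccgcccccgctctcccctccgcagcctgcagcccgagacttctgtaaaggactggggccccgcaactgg

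Levels are given as the processed signal, the linear intensity of a spot after background subtraction, for the arrays in the order DMSO, PHA665752, sc siRNA, MET siRNA, and ratios as the log2 difference of signals after the 75th percentile of each array was subtracted. A ratio past 2-fold (a log2 ratio above 1 or below -1) was counted as higher or lower. The noise between spots of an array gave a log2 ratio an SD of 0.070, 0.066 and 0.068 in the pairs PHA665752 over DMSO, MET siRNA over sc siRNA and sc siRNA over DMSO; it leaves out differences between cultures. MET itself had a log2 ratio of -1.33 with MET siRNA and -0.93 with PHA665752. The epithelial keratins KRT8 and KRT18 and EPCAM were well above background on every array. CDH1, in contrast, did not exceed a signal of 33.1. Of the mesenchymal markers, VIM was brighter than the keratins, at 291840 with DMSO and 276821 with PHA665752, and its spot was marked on the siRNA arrays. FN1 had signals of 1061, 3564, 770.3 and 1107 and an inhibitor log2 ratio of 1.96, and the part of this in the members' ratios was not tested.

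The 5 brightest members were 3 structural RNAs, 1 other long noncoding RNA and 1 pseudogene transcript, and each stayed within 1.5-fold in the treatment pairs. RN7SL1, the RNA of the signal recognition particle, had signals of 185934 (DMSO), 131316 (PHA665752), 191124 (sc siRNA) and 165893 (MET siRNA). RN7SK, which holds back the elongation factor P-TEFb, had 93023, 76605, 71217 and 73113 in the same order. Both were therefore among the most strongly labelled RNAs on the array, and their inhibitor log2 ratios were -0.29 and -0.07. The others were LINC01001 with a signal of 177538 with DMSO, SNORD3B-1, a U3 snoRNA needed for ribosomal RNA cleavage, with 110694, and RPS2P32, a pseudogene of a ribosomal protein, with 72311.

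With PHA665752, 33 of the 386 members were more than 2-fold higher than with DMSO (8.55%; 5.7% of the 10781 probes of the array that passed the same signal rule), and 10 were lower (2.59%; 7.23% of all such probes). Among the 9480 probes of coding (NM) accessions alone, 5.73% were higher and 7.74% lower. The median log2 ratio of the members was 0.13, against -0.01 over all these probes. Long noncoding RNAs lay highest. The 160 probes of this RefSeq biotype had a median of 0.34, with 22 higher and 3 lower, and the pseudogene transcripts a median of 0.09, with 8 higher and 5 lower of 155. Scaling to the 50th percentile in place of the 75th shifted the ratios of this pair by -0.25 over all probes. It gave 22 members higher and 16 lower, or 57.9% of the calls higher against 76.7%. These were 5.70% and 4.15% of the members, beside 3.40% higher and 12.2% lower of all probes under the same scaling. The median of the long noncoding RNAs stayed above 0 at 0.09, whereas that of all members turned to -0.11 and that of the pseudogene transcripts to -0.16. Relative to the median of all probes, the long noncoding RNAs lay 0.35 above it. The 50th percentile and the median of probes well above background move all probes alike and cannot change this distance. Leaving out pseudogene transcripts cannot change it either. Under the remaining alternatives it lay between 0.32 and 0.36.

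**Figure D1:**
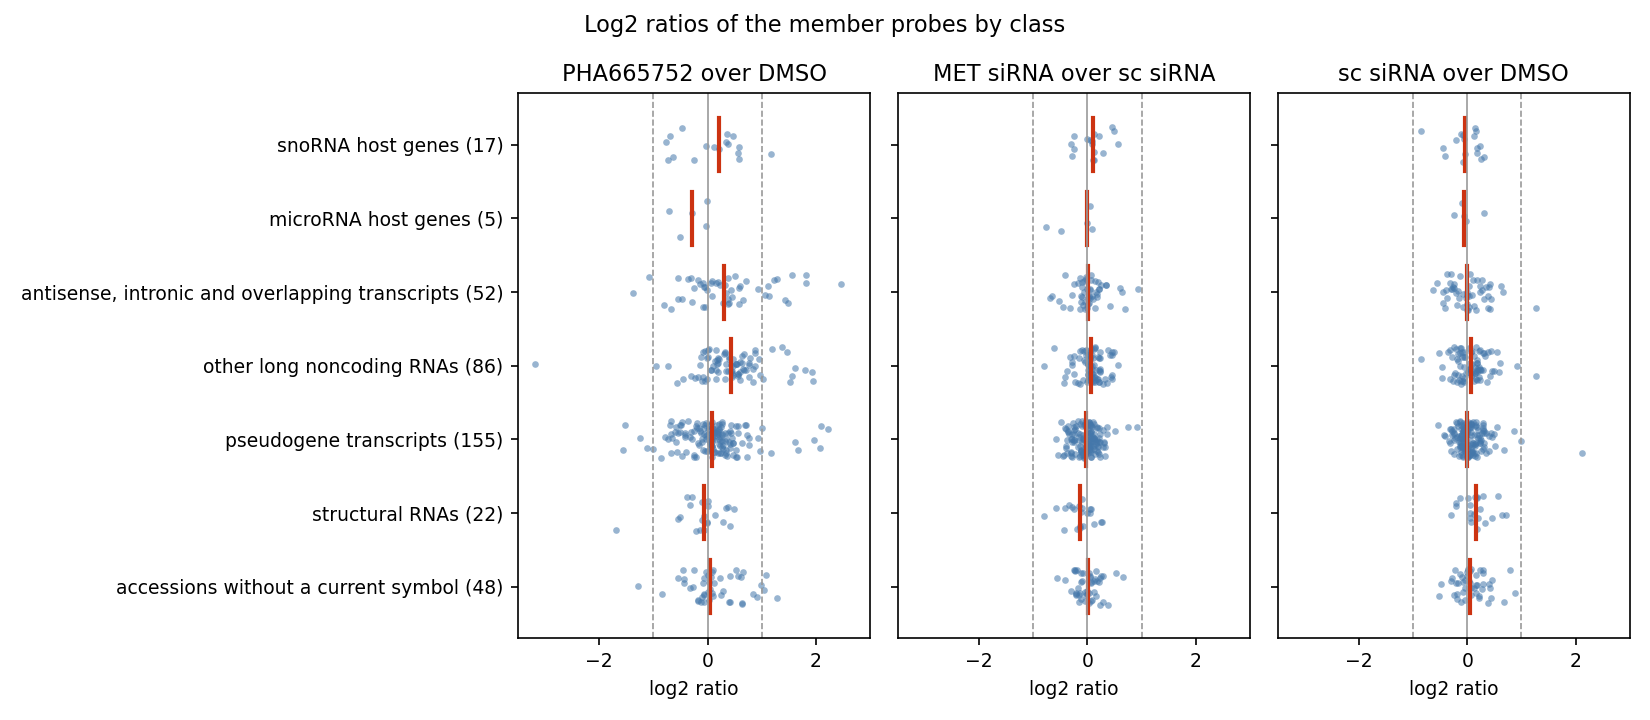
Log2 ratio (x axis) of each member probe by class (y axis, number of probes in parentheses) in the 3 pairs; each point is a probe, the red bar the median of the class and the dashed lines 2-fold, and the 1 gene now listed as coding is left out. Points past the right dashed line are frequent with PHA665752 (33 members) and absent with MET siRNA.

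Among the long noncoding RNAs, CCDC18-AS1 had the highest inhibitor ratio of all members. Its signal was 588 (DMSO), 2771 (PHA665752), 647 (sc siRNA) and 743 (MET siRNA), so the PHA665752 array stood alone, at 5.47-fold over DMSO. MALAT1, an abundant RNA of nuclear speckles, had 747, 2448, 665 and 926 in the same order. It was 3.80-fold higher with PHA665752 and had a log2 ratio of 0.43 with MET siRNA. ST7-AS1 was far brighter, with 15358, 46705, 13625 and 22744, and both treated arrays lay above both controls. It was 3.53-fold higher with PHA665752, and in the RefSeq gene order of chromosome 7 it lies beyond MET with 7 genes between them. LINC02035 (378, 1251, 332 and 468) and LINC00482 (454, 1361, 464 and 656) were likewise highest with PHA665752 and next highest with MET siRNA, with inhibitor log2 ratios of 1.94 and 1.80. The remaining long noncoding RNA among the 10 highest was ZNF436-AS1, with 617, 1865, 380.0 and 594 and a log2 ratio of 1.81. TEX41, long and bright, went from 10993 to 25993 with PHA665752, and was 10827 and 12088 on the siRNA arrays.

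Pseudogene transcripts, 155 of the 386 members, took 4 of the 10 highest places. Of these 155 probes 5.16% were higher past 2-fold, beside 5.7% of all probes. TMEM198B had signals of 607 (DMSO), 2438 (PHA665752), 431 (sc siRNA) and 745 (MET siRNA), a 4.66-fold difference in the inhibitor pair. CASTOR3P, related to the arginine sensors of the mTORC1 pathway, had 629, 2286, 394 and 763. GGT8P, from the gamma-glutamyltransferase family, had 384, 1406, 586 and 757, and LOC155060 had 568, 1914, 654 and 702. In all 4 the MET siRNA array exceeded both controls, with siRNA log2 ratios of 0.74, 0.91, 0.32 and 0.06. MT1L, from the metallothionein cluster of metal-binding proteins, was the brightest member higher past 2-fold, at 33070 (DMSO), 90609 (PHA665752), 54945 (sc siRNA) and 69530 (MET siRNA). For MT1L the controls also differed by almost 2-fold, with a log2 ratio of sc siRNA over DMSO of 0.99.

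MANCR, a long noncoding RNA named for its association with mitosis, had the lowest inhibitor ratio of all members. Its signal was 4100.1 (DMSO), 389 (PHA665752), 2826 (sc siRNA) and 1667 (MET siRNA), and it was 9.09-fold lower with PHA665752 and 1.75-fold lower with MET siRNA. Among the 86 probes of other long noncoding RNAs it was the only one lower past 2-fold (1.16%, beside 7.23% of all probes). It had the lowest siRNA ratio of all members too. SNAR-A3, a small RNA from a multicopy family bound by the protein NF90, had 85965, 23022, 118470.0 and 70209.6. It was 3.22-fold lower with PHA665752 and 1.74-fold lower with MET siRNA, and copies of the family cannot be told apart here. Over the alternatives the inhibitor ratio of MANCR ran from -3.43 to -3.01 and its siRNA ratio from -1.11 to -0.77, and those of SNAR-A3 from -1.93 to -1.65 and from -1.10 to -0.75.

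The other lower members were 5 pseudogene transcripts, 2 antisense transcripts and 1 unnamed accession. PTTG3P, a pseudogene related to securin, the inhibitor of separase, had 1100.4 (DMSO), 322 (PHA665752), 785 (sc siRNA) and 772 (MET siRNA). WDR5CP had 1027, 308, 789 and 673, TOP1P2 had 2280.4, 830.0, 1818 and 1336, and HMGB3P1 had 4179.9, 1652, 2411 and 2682. On the PHA665752 array each was below the 3 other arrays. TPI1P2, a pseudogene of the glycolytic enzyme triosephosphate isomerase, was bright throughout and 2.02-fold lower. NHSL1-AS1 (4536, 1514, 3169 and 2676), SVIL-AS1 (2020.0, 823, 2042 and 1915) and NR_026779 (2384, 843, 2063 and 1607) completed the set, with log2 ratios of -1.37, -1.08 and -1.29.

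**Figure D2:**
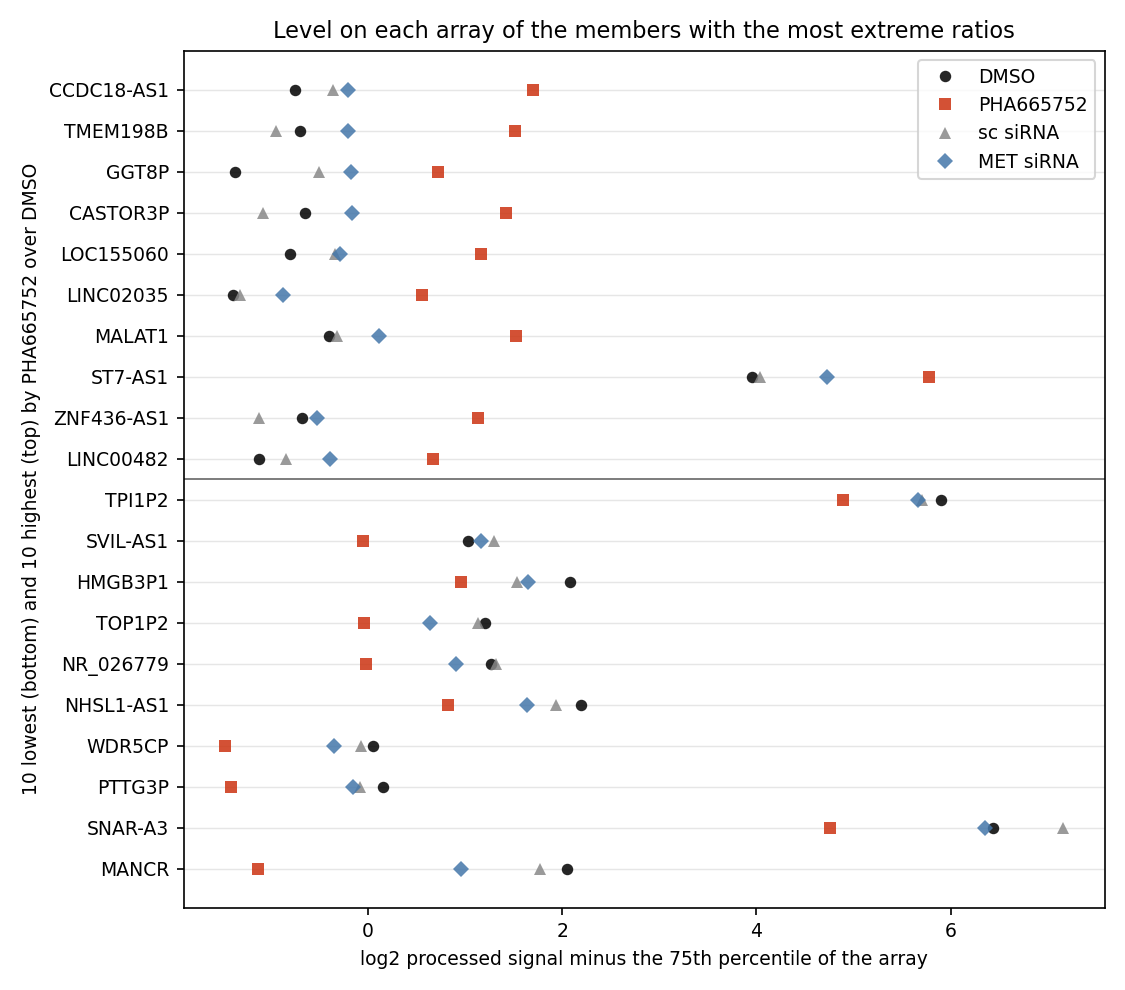
Scaled log2 level (x axis, relative to the array's 75th percentile) for the 10 members with the highest and the 10 with the lowest ratio of PHA665752 over DMSO (y axis), with 1 point per array. The PHA665752 squares stand apart from the 3 other arrays in each row, by 2.45 over DMSO for CCDC18-AS1 and -3.18 for MANCR.

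With MET siRNA, 0 members were more than 2-fold higher and 0 lower than with sc siRNA; among all probes that passed the signal rule, 0.195% were higher and 0.0371% lower, and among the NM probes 0.222% and 0.0422%. The median log2 ratio was 0.02, against -0.04 over all probes. A log2 ratio of 0.93 was the highest, for SERTAD4-AS1, with signals of 1157 (DMSO), 2183 (PHA665752), 796 (sc siRNA) and 1568 (MET siRNA). CASTOR3P (0.91), TMEM198B (0.74), ST7-AS1 (0.69), NR_024493 (0.66) and PDCD4-AS1 (0.64) followed, and the inhibitor ratio of each was above 0.9 as well. NR_024493 has a further probe, too dim with PHA665752 to be a member, whose ratios were -0.75 and -0.20 in the treatment pairs. The 6 lowest probes were those of MANCR, SNAR-A3, MIR100HG (-0.76), ARHGAP5-AS1 (-0.70 and -0.65 by its 2 probes) and LINC00520 (-0.62), and their inhibitor ratios were below -0.5. When each array was centred on the median of its probes well above background instead, the siRNA ratios shifted by -0.30 over all probes. Under that centring 3 members, MANCR, SNAR-A3 and MIR100HG, passed 2-fold with -1.11, -1.10 and -1.06 (0.777%, beside 0.538% of all probes lower). The probes it uses differ between the arrays, with 68.2% well above background on sc siRNA and 61.1% on MET siRNA.

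No member was past 2-fold in both treatment pairs, which share no array, although MANCR and SNAR-A3 were under that centring. Of the 33 members higher with PHA665752, 32 had a log2 ratio above 0 with MET siRNA, with a median of 0.33, and of the 10 lower members 9 were below 0. The same held for the array as a whole, where 571 of 614 higher probes (93.0%) were above 0 and 575 of 779 lower probes below 0. Over the 386 members Pearson's r between the treatment pairs was 0.63 and Spearman's rho 0.56, against 0.53 and 0.53 over all 10781 probes; the points share their arrays and the slide. Direction was shared by 263 members (68.1%) and by 69.2% of all probes, close to each other. All these sign counts were made with the main scaling and depend on it. The 50th percentile shifted the siRNA ratios by -0.03 over all probes. With the median of probes well above background, a set that differs between the arrays, they shifted by -0.30. The median of 0.33 for the 33 higher members would then lie near 0, so their shared sign does not hold under every scaling. Such a shift leaves r and rho unchanged.

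**Figure D3:**
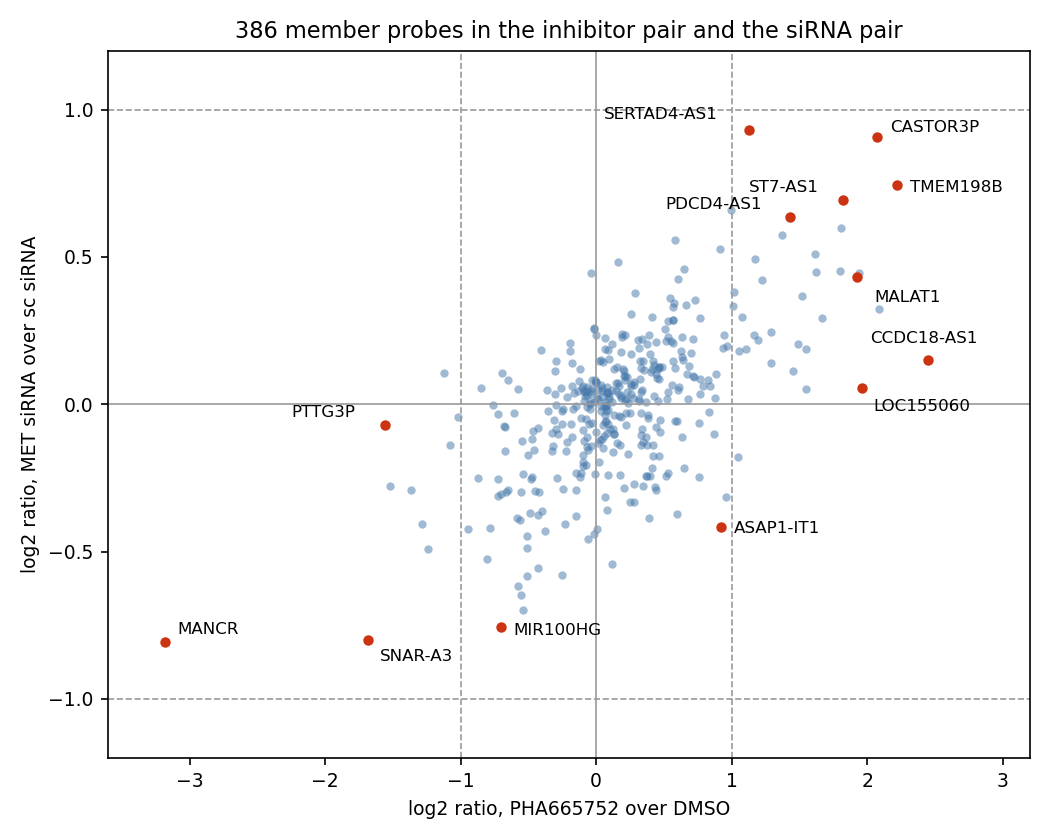
Log2 ratio of PHA665752 over DMSO (x axis) against that of MET siRNA over sc siRNA (y axis) for the 386 member probes; dashed lines mark 2-fold and the red points are named. MANCR lies lowest in both pairs (-3.18 and -0.81), and CASTOR3P, TMEM198B and SERTAD4-AS1 lie at the upper right, below the 2-fold line of the siRNA pair.

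The controls differed as well. With sc siRNA, 3 members were more than 2-fold higher than with DMSO and 0 lower (1.26% and 0.176% of all probes, 1.31% and 0.19% of the NM probes), and this pair shares its DMSO array with the inhibitor pair and its sc siRNA array with the siRNA pair. IFITM4P, a pseudogene of the interferon-induced transmembrane proteins that block virus entry, had 16693 (DMSO), 21332 (PHA665752), 60972 (sc siRNA) and 72787 (MET siRNA). Both transfected arrays thus lay above both others, at 4.35-fold for sc siRNA over DMSO. LINC00520 had 567, 328, 1144 and 771, and ASAP1-IT1 had 309.9, 507, 625 and 483, with log2 ratios of 1.27 and 1.26. At the lower end stood DANCR (3012, 2193, 1403 and 1187; -0.85) and LINC00294 (1659.8, 1596, 776 and 1119; -0.84). GALNT9-AS1, SPEN-AS1, HMGB3P1 and LOC100507547 followed with -0.64, -0.55, -0.54 and -0.52. For IFITM4P and DANCR the siRNA ratios were 0.21 and -0.29, small beside the difference between the controls.

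The 17 snoRNA host genes split in the inhibitor pair. EPB41L4A-AS1, the host of SNORA13, was the only one past 2-fold (1 of 17, beside 5.7% of all probes higher), with 5607 (DMSO), 10889 (PHA665752), 5368 (sc siRNA) and 7797 (MET siRNA), a log2 ratio of 1.17. With the 50th percentile it had 0.93, and SNHG1 was instead the only host past 2-fold, at -1.01. SNHG11 (0.58), SNHG18 (0.58) and ZFAS1 (0.57), host of the SNORD12 group, also lay above 0. SNHG1, which holds 8 snoRNA genes of the SNORD family in RefSeq, had 12381, 6298, 9643 and 9954. Its log2 ratio was -0.76 with PHA665752 and near 0 with MET siRNA. SNHG10 (-0.72), SNHG17 (-0.70), SNHG15 (-0.65) and SNHG9 (-0.47) lay on the same side. With MET siRNA, SNHG17 and SNHG15 had 0.11 and 0.08, and SNHG10 and SNHG9 had -0.31 and -0.25.

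GAS5, with 11 snoRNA genes the richest host in the set, was bright, with 41652 (DMSO), 45934 (PHA665752), 38324 (sc siRNA) and 42864 (MET siRNA). Its log2 ratios were 0.36 with inhibitor and 0.11 with siRNA. SNHG29 (64692, 64501, 52393 and 57253) and SNHG6 (36231, 33844, 26426 and 28225) were likewise bright, with inhibitor log2 ratios of 0.21 and 0.12. The host genes SNHG8, SNHG3 and SNHG7 had inhibitor ratios of 0.46, 0.37 and 0.34, and SNHG12 had -0.04 there and 0.45 with MET siRNA. The 17 hosts had a median ratio of 0.21 in the inhibitor pair and 0.11 in the siRNA pair, and it turned to -0.04 with the 50th percentile and to -0.19 with the median of probes well above background, respectively. All 9 measured snoRNP proteins, which bind the snoRNAs, were below 0 with PHA665752, with a median of -0.76, and NOP56 (-1.08) and DKC1 (-1.10), the core proteins of the box C/D and box H/ACA particles, passed 2-fold. Over all probes 5468 of 10781 were below 0 and 7.23% lower past 2-fold, and the 2 calls became 0 with quantile normalization and 5 with the 50th percentile. Their median lay between -1.01 and -0.65 over the alternatives, and with MET siRNA it was -0.15.

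The 5 microRNA host genes lay at or below 0 with PHA665752, with a median of -0.29. MIR100HG, which holds the genes of miR-100, let-7a-2, miR-125b-1 and miR-10526, had 2839.5 (DMSO), 1501 (PHA665752), 2972 (sc siRNA) and 1818 (MET siRNA). Both treated arrays were below both controls, with log2 ratios of -0.71 and -0.76. MIR31HG, host of miR-31, had 999, 604, 709.6 and 523, and ratios of -0.51 and -0.49. The ratios of both hosts were thus nearly the same size with inhibitor and siRNA, and below 0 in both pairs under every alternative. MIR23AHG (529.8, 448, 419 and 449), the source of miR-23a, miR-27a and miR-24-2, had log2 ratios of -0.03 and 0.05. MEG3, an imprinted long noncoding RNA, had -0.29 with PHA665752, and MIR550A3HG lay within 0.08 of 0 in each pair. Of 12 measured microRNA processing factors, AGO2, the slicing Argonaute, was the only one past 2-fold with PHA665752, at -1.48. Over all probes 5.7% were higher and 7.23% lower in that pair.

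**Figure D4:**
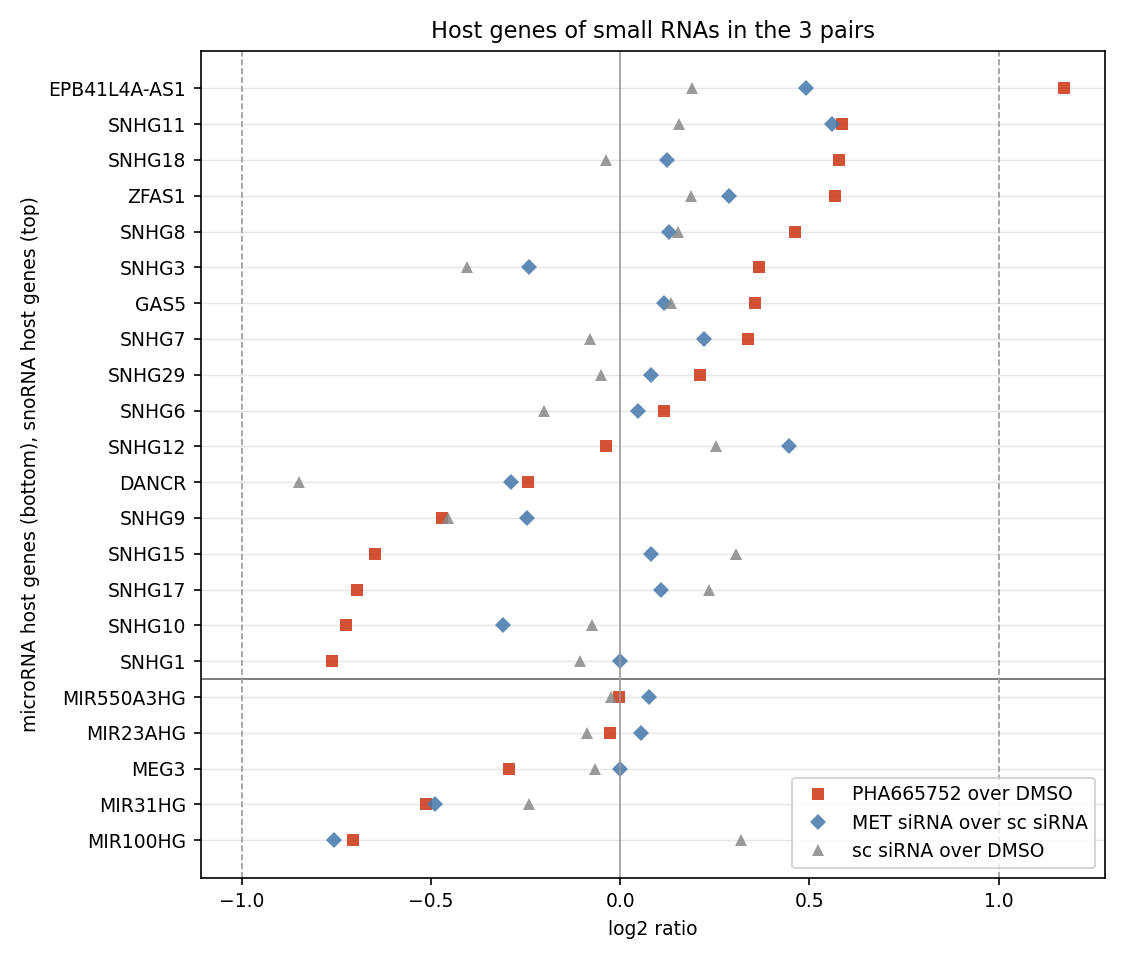
Log2 ratios (x axis) of the 17 snoRNA host genes and the 5 microRNA host genes (y axis, ordered by the inhibitor pair within each group) in the 3 pairs, with 1 point per pair and dashed lines at 2-fold. EPB41L4A-AS1 is the only host past a dashed line (1.17), and in MIR100HG and MIR31HG the inhibitor and siRNA points lie beside each other.

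The 3 member genes on the p53 and damage list lay above 0 with PHA665752, as did 112 of the 160 long noncoding RNA probes. PVT1, also on this list, had a probe too dim with PHA665752 to be a member, with an inhibitor log2 ratio of -0.62. TP53TG1, named as a p53 target, had 1582 (DMSO), 2764 (PHA665752), 1237 (sc siRNA) and 1665 (MET siRNA) and was 2.03-fold higher. LINC-PINT, a p53-induced transcript that works with the Polycomb complex, had 904, 1502, 889.6 and 1082, a log2 ratio of 0.95. LINC00467 had 0.53 and 0.64 by its 2 probes. NORAD, which binds PUMILIO proteins and stood with MALAT1 on the list of nuclear architectural RNAs, had 2928, 4483, 2152 and 2354, an inhibitor log2 ratio of 0.83 and an siRNA ratio of 0.08. Among long noncoding RNAs studied in cancer, DLEU1 (1134, 508, 917 and 706) had -0.94 and CYTOR (9238, 5802, 8777 and 8144) -0.46. Of the 10 paraspeckle proteins, which gather on a nuclear long noncoding RNA, 9 were below 0 with PHA665752 (7 with quantile normalization), and RBM14 (-1.15) passed 2-fold, beside 5468 of 10781 probes below 0 and 7.23% lower past 2-fold.

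The 22 structural RNA probes had median ratios of -0.07 (inhibitor) and -0.13 (siRNA), and 18 of 22 were above 0 in sc siRNA over DMSO, with a median of 0.16; over the alternatives 13 to 18 were. SNAR-A3 was the only one past 2-fold in any pair (1 of 22 lower with PHA665752, beside 7.23% of all probes). RMRP, the RNA of the RNase MRP particle, had 3292 (DMSO), 2185 (PHA665752), 4315 (sc siRNA) and 3308 (MET siRNA). SCARNA5, a guide RNA of the Cajal body, had 533, 323, 512 and 353, and both treated arrays lay below both controls in this RNA, as in SNAR-A3. RPPH1 of RNase P (5390.5, 4646, 3935 and 4279) and TERC, the telomerase template (947, 763, 823 and 799.6), kept within 0.21 of 0 in every pair. The probes for 18S and 28S ribosomal RNA had inhibitor ratios between -0.54 and -0.22. Most of these RNAs carry no poly(A) tail, and how far labelling reached them was not measured.

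Antisense and divergent transcripts were set beside the genes they are named after. The partner genes were measured for 55 of 64 member probes so named, and 13 of the 64 are divergent transcripts (named X-DT), a kind added after values were seen. In the inhibitor pair these 55 had a median of 0.37 and their partners 0.08, with Pearson's r of 0.13 and the same sign in 32. CCDC18-AS1 and CCDC18 lay on opposite sides, at 2.45 and -1.47: CCDC18 had 1305.8 (DMSO), 406 (PHA665752), 693 (sc siRNA) and 818 (MET siRNA). It was the only pair past 2-fold in opposite directions. PDCD4-AS1 (3297, 7659, 2629.8 and 4219.5) and PDCD4 (774, 2661, 504 and 1281), a brake on translation, were both higher with PHA665752, at 1.43 and 1.995, and in the siRNA pair they had 0.64 and 1.30. LBX2-AS1 and LBX2 were also both higher (1.05 and 1.08), and NHSL1-AS1 and NHSL1 both lower (-1.37 and -1.64), though NHSL1 was dim, at most 84.0.

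Of the 13 members in these pairs that were higher past 2-fold, 10 had a partner within 2-fold. Most partners were within 2-fold in any case: over all 55 pairs the partner was higher in 4 and lower in 3. ST7-AS1 had 1.82 and ST7 0.31, ZBED5-AS1 had 1.55 and ZBED5 0.25, and BAIAP2-DT had 1.52 and BAIAP2 -0.24. The opposite occurred for GTSE1-DT at 0.53, whose partner GTSE1, a gene of the G2 phase, had -1.69. SVIL-AS1 (-1.08) and SVIL (0.58) also lay on opposite sides. The 13 divergent transcripts, among them TOLLIP-DT (1.37), MAN1B1-DT (1.55) and BAIAP2-DT, had a median of 0.37 with PHA665752. Each was above 0 with MET siRNA, with a median of 0.14. Over all probes the inhibitor median was -0.01, and 42.7% were above 0 with MET siRNA. With the median of probes well above background, only 3 of the 13 stayed above 0 in that pair.

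**Figure D5:**
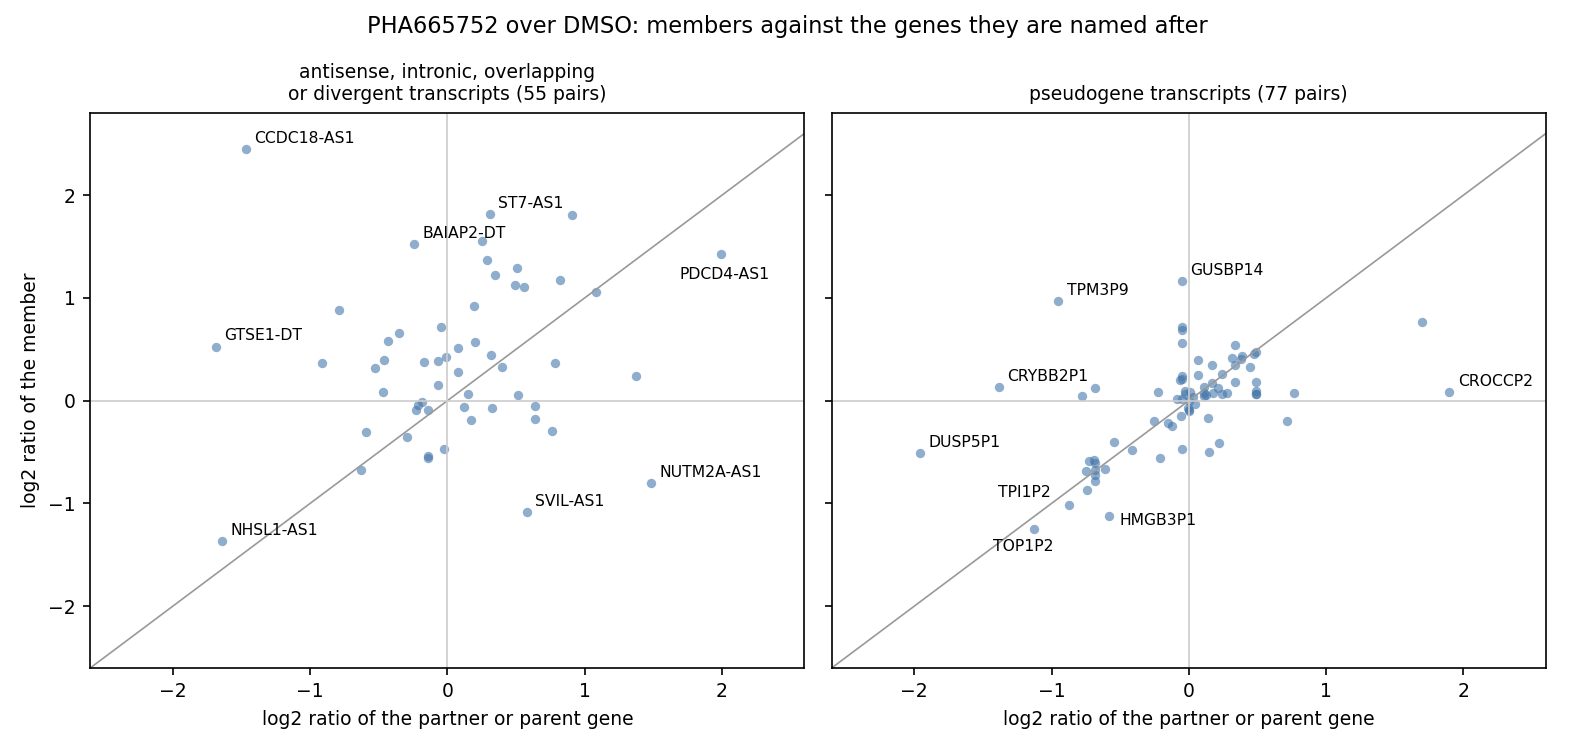
Log2 ratio of PHA665752 over DMSO for the gene a member is named after (x axis) against that of the member (y axis), left for 55 antisense, intronic, overlapping or divergent transcripts and right for 77 pseudogene transcripts; each point is a member probe and the grey diagonal marks equal ratios. Pseudogene points gather near the diagonal (r 0.51) and the left panel shows CCDC18-AS1 at 2.45 against -1.47 for CCDC18.

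Pseudogene transcripts ran closer to their parents, though the pairs were not matched for signal or size of ratio. For 77 probes of 57 measured parent genes the median absolute difference of the inhibitor ratios was 0.13. Pearson's r was 0.51 and the sign the same in 53. Partners and parents had only to be well above background. Some were dim, such as MATN1 (at most 28.7) and SERTAD4 (56.1) among the partners and FAAH (36.7) among the parents. TOP1P2 (-1.24) lay beside TOP1 (-1.13), the gene of topoisomerase I, and TPI1P2 (-1.02) beside TPI1 (-0.88). HMGB3P1 had -1.13 and HMGB3, a chromatin protein gene, -0.58. TPM3P9 and TPM3, a tropomyosin gene, lay apart, at 0.97 and -0.95, and DUSP5P1 had -0.51 where the phosphatase gene DUSP5 had -1.96. GUSBP14 was 2.24-fold higher, with a ratio of -0.05 for GUSB. The files hold no probe sequences, so probe binding to the parent messenger RNA cannot be told apart from a signal of the pseudogene transcript itself.

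Where a gene had several member probes (35 genes), these differed by a median of 0.12 in the inhibitor pair. The largest spread was 1.32, for FAM86B3P, whose 3 probes had log2 ratios of -0.49, -0.56 and 0.76. The GUSBP1 probes spread by 1.19 and the PFN1P2 probes by 0.84, so for these genes no single direction can be given. The 48 probes of accessions without a symbol had a median of 0.04 with PHA665752, with 3 higher, namely NR_026906 (1.29), NR_026862 (1.08) and NR_024377 (1.05), and 1 lower. These were 6.25% higher and 2.08% lower, beside 5.7% and 7.23% of all probes.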

How the data were processed

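The authors labelled RNA of Hs746T cells with the LowInput QuickAmp kit, hybridised it to single-colour Agilent human V2 arrays and deposited the Feature Extraction output (11.5.1.1, per the file headers). The deposited processed signals are linear spot intensities, background-subtracted and detrended but unnormalized between arrays; other deposited columns mark outlier, saturated and well-above-background spots. The inhibitor's array dose and time, and the settings of the authors' own normalization, are not given in the sources used here.

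Outlier spots were left out (1.92%, 2.21%, 1.69% and 5.58% on the DMSO, PHA665752, sc siRNA and MET siRNA arrays), repeated spots were combined as the mean of their log2 signals, and each array's 75th percentile was taken off. Symbols and biotypes came from RefSeq (GRCh38.p14) through the accession; the array was annotated on hg19, so its probes have no coordinates here. Classes were planned from gene descriptions, which the files lack, and rest on symbol and biotype. For normexp the spots' median signal was used, the files having no mean. Array signal has no depth in reads, and the number of arrays limits precision. The members and lists were chosen with earlier results of these data known.

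Named members were those past 2-fold in both treatment pairs, the 10 highest and 10 lowest of the inhibitor pair, 6 and 6 of each other pair, the brightest 5, those at the signal minimum, those of the fixed lists and partner genes; others (TEX41, the divergent transcripts, genes with discordant probes, probes failing on 1 array and unnamed accessions past 2-fold) were chosen after values were seen. Y-linked members are counted, not named. Alternatives were the 50th percentile, the median of probes well above background, quantile normalization, normexp (offset 50), plain background subtraction, the series matrix, other signal minimums, background marks ignored, 1 probe per gene and no pseudogenes. The series matrix equals the processed signal of the 383 single-spot members within 0.06. Python 3.11.15, pandas 2.3.3, R 4.3.3 and limma 3.58.1 were used; the ratio rule was tested on simulated data.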

Additional observations from a re-analysis of the deposited data

Results flagged for a closer look

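In 3 members the inhibitor and siRNA ratios had opposite signs, each more than 5 times the spot noise from 0 (a log2 ratio of 0.35 in the inhibitor pair and 0.33 in the siRNA pair); with 1 array per condition the difference between the pairs was not tested. ASAP1-IT1, an intronic transcript of ASAP1, had log2 ratios of 0.92 (inhibitor) and -0.42 (siRNA), beside 1.26 for sc siRNA over DMSO. LOC145474 had 0.60 and -0.37, beside 0.92 between the controls. ANXA2P1, a pseudogene of the membrane-binding protein annexin A2, had 0.39 and -0.39, beside -0.10 between the controls. In ASAP1-IT1 and LOC145474 the sc siRNA array held the highest of the 4 signals and DMSO the lowest. Opposite signs of any size were found in 123 of the 386 members. The same sign was found in 68.1% of the members and 69.2% of all probes. How many of all probes passed both limits with opposite signs was not counted.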

How the results depend on the processing

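No paired analysis was possible because each condition had 1 array. No member ratio past 2-fold moved to the opposite side of 0. This check could not fail for the medians or the siRNA pair, where nothing was past 2-fold. Some medians did change sign, as given below. For PHA665752 over DMSO, the 50th percentile gave 16 lower members (4.15%, beside 12.2% of all probes). The medians were then -0.11 for all members and -0.036 for the snoRNA hosts. With the median of probes well above background they were 0.038 and 0.12. The snoRNA host median was 0.11 with normexp and 0.12 with plain background subtraction. Signal minimums of 100, 1000 and none (579, 198 and 951 members) gave 67, 13 and 157 higher and 23, 4 and 35 lower members. The higher were 11.6%, 6.57% and 16.5%, beside 7.44%, 4.08% and 10.8% of all probes at the same minimum. The lower were 3.97%, 2.02% and 3.68%, beside 7.49%, 6.70% and 7.43%. The median was 0.24 without a minimum. Leaving out pseudogene transcripts gave 5 lower (2.16%, beside 7.23% of all probes). For MET siRNA over sc siRNA, the median of probes well above background gave 3 lower members (0.777%, beside 0.538% of all probes). The medians were then -0.28 for all members and -0.19 for the snoRNA hosts. A minimum of 100 gave 2 higher (0.345%, beside 0.339% of all probes). No minimum gave 13 higher (1.37%, beside 0.991%) and 2 lower (0.210%, beside 0.232%). For sc siRNA over DMSO, the 50th percentile gave medians of -0.072 and -0.14. Ignored background marks gave 1 lower (0.240%, beside 0.180% of all probes). A minimum of 100 gave 7 higher (1.21%, beside 1.47%) and 2 lower (0.345%, beside 0.325%). A minimum of 1000 gave 1 higher (0.505%, beside 1.13%). No minimum gave 15 higher (1.58%, beside 2.04%) and 4 lower (0.421%, beside 0.513%). The snoRNA host median was 0.047 with a minimum of 100 and without one. The dimmer probes these minimums admit lie nearer background, where ratios are less precise.

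Of the 33 higher members in the inhibitor pair, 22 were still past 2-fold with the 50th percentile and 28 to 32 with the other scalings or corrections, the series matrix and ignored background marks, and of the 10 lower members 9 with quantile normalization and 10 with the rest. The 3 members higher with sc siRNA stayed past 2-fold in each. With 1 array per condition, spread between cultures was not measured.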
